A study of Mus musculus with 23 samples.

Results

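The 10 listed genes of the T cell lineage, Cd3d, Cd3e, Cd3g, Cd247, Lck, Cd4, Cd8a, Bcl11b, Gata3 and Tcf7, were followed across 23 mouse bone marrow samples of irradiation-induced B cell leukemia and of B cell precursors before leukemia. The list was made by name, and 8 of its 10 genes had a probe set that the array annotation ties to a single gene, of 19938 genes so measured. Lck and Tcf7 had none and were not analysed here. All mice had received a single dose of 2 Gy at 2 months of age, so no group was free of irradiation. The groups were leukemic marrow of 10 Pax5+/- mice (samples 1 to 10), pro-B and pre-B cells of 7 Pax5+/- mice taken 3 weeks after the dose (samples 11 to 13 and 21 to 24), leukemic marrow of 3 wild-type (WT) mice (samples 14, 15 and 17) and pro-B and pre-B cells of 3 WT mice taken 3 weeks after the dose (samples 18 to 20). Pax5+/- mice carry 1 functional copy of Pax5, the transcription factor that holds progenitors in the B cell lineage. The labels name neither a strain nor a sort. They call the leukemic samples both pro-B cells and bone marrow cells, and give the time after the dose for the preleukemic samples alone. The study's design counts 4 WT leukemic mice, of which 3 were analysed here. In each genotype, leukemia therefore cannot be told apart from the stage of the B cells, the time after the dose or a mixture of other marrow cells, and in this bulk RNA fewer cells of a type and less RNA per cell cannot be told apart.

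The T cell receptor recognises antigen through its variable chains and passes the signal on through the CD3 chains (gamma, delta and epsilon) and the zeta chain encoded by Cd247. The co-receptors CD4 and CD8 bind MHC molecules and bring the kinase LCK to the complex. In thymic progenitors Notch signalling switches on Tcf7 and Gata3, and Bcl11b then locks in the T cell fate, while PAX5 does the same for B cells and represses genes of other lineages. In mouse models, B cell precursors without Pax5 can give rise to T cells. NK cells and some other innate lymphocytes express parts of the CD3 complex, and plasmacytoid dendritic cells and other dendritic cells can carry CD4.

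Levels are the authors' log2 signals, 1 array per sample, and a gene's level is not comparable with that of another gene because probe sets differ in brightness. Array medians lay between 6.06 and 6.2, and levels below the median of their array are called low here. In 22 samples all 8 measured B lineage markers (Pax5, Cd79a, Cd79b, Ebf1, Vpreb1, Igll1, Blnk and Rag1) were above the median of their array, and in WT leukemia 15 it was 7 of 8. They were lower in leukemia, though. By the limma test described below, 6 of 8 fell in Pax5+/- mice (median difference -1.38), where 36.5% of all genes tested fell. In WT mice 8 of 8 fell (median -1.85), where 19.3% of all genes fell. The mean of the B lineage markers was 9.59 to 11.16 in Pax5+/- leukemias against 11.7 to 11.95 in Pax5+/- preleukemic samples. It was 8.44 to 10.63 in WT leukemias against 11.75 to 12.09 in WT preleukemic samples, with no overlap in either genotype. Pax5 ranged from 6.85 to 11.42 in Pax5+/- leukemias and from 11.31 to 11.53 in Pax5+/- preleukemic samples, and whether its probes lie in the deleted part is not known, so it checks no genotype. Several samples stood apart in markers of other cells. The mean of 11 NK cell markers reached 9.26 in WT leukemia 15 and 8.49 in WT preleukemic sample 20, against a median of 6.15 in Pax5+/- leukemias, 6.01 in Pax5+/- preleukemic samples, 6.23 over the WT leukemias and 7.4 over the WT preleukemic samples. Neutrophil and plasmacytoid dendritic cell marker means were also highest among preleukemic samples in sample 20 (11.08 and 10.01). In WT mice sex and stage cannot be told apart, since the 3 leukemias had Xist above the Y-linked gene Eif2s3y and the 3 preleukemic samples had it below. Among Pax5+/- mice the count was 5 of 10 leukemias and 3 of 7 preleukemic samples.

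Leukemic samples were set against preleukemic cells of the same genotype with limma, at an adjusted p threshold of 0.05 over all 15542 genes tested. Of the 8 measured genes, Cd4 rose in Pax5+/- leukemias, 2.19-fold, and the other 7 did not pass, where 64.6% of all genes tested passed. Seen sample by sample, Cd3g and Cd3e in Pax5+/- leukemias 2 and 5, and Cd8a in leukemia 5, were far above all other Pax5+/- samples. Gata3, Bcl11b and Cd3d were low in all 10 Pax5+/- leukemias. In WT leukemias 0 of 8 passed, with 1 at an unadjusted p under 0.05, where 37.2% of all genes passed. The plot of signals by sample shows the 8 genes.

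**Figure D1:**
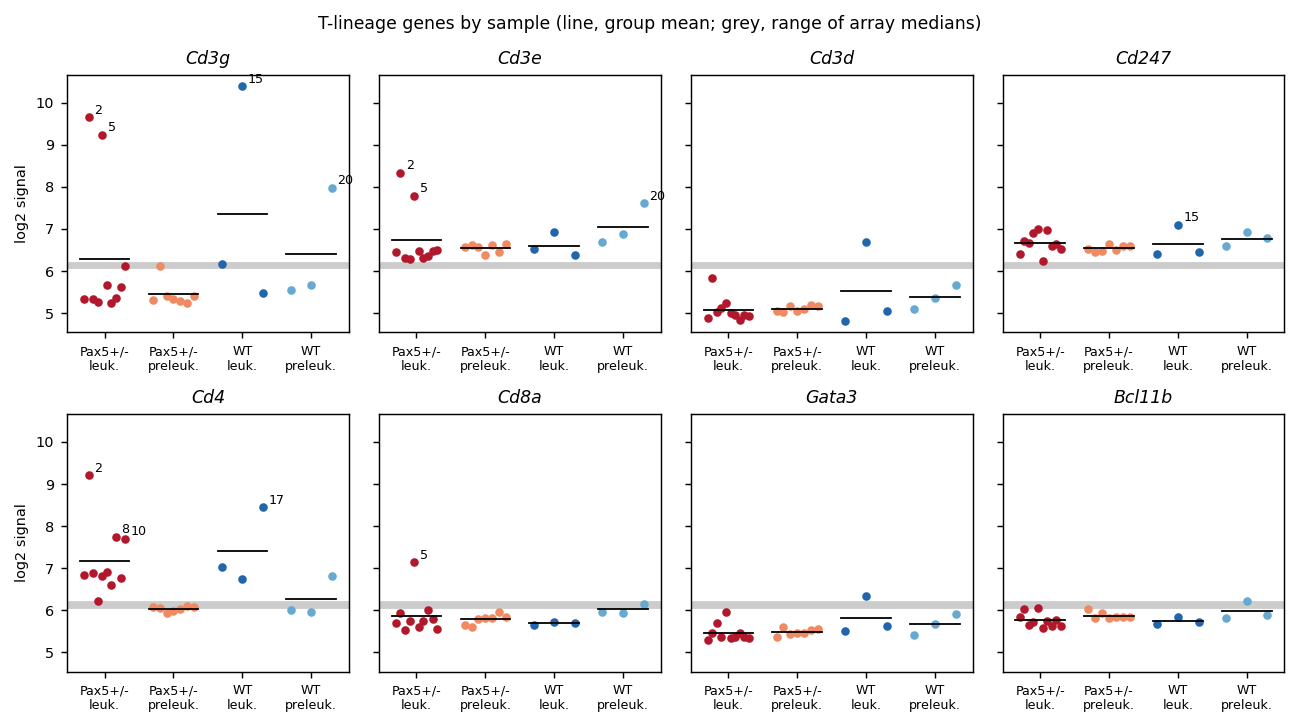
Log2 signal (vertical axes) of the 8 measured T-lineage genes in 10 Pax5+/- leukemic, 7 Pax5+/- preleukemic, 3 WT leukemic and 3 WT preleukemic samples. Points are samples, black lines group means and the grey band the range of array medians (6.06 to 6.2), and numbers name samples at or above 7.1. Cd3g was high in samples 2, 5, 15 and 20, and Cd4 was above all Pax5+/- preleukemic samples in every Pax5+/- leukemia.

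The CD3 chain genes Cd3g, Cd3d and Cd3e follow one another on chromosome 9. Their promoters are shown because Cd3g and Cd3e carry the sample-to-sample pattern below, and Cd3d lies between them. Each window runs from 250 bases before to 50 after the start site annotated by RefSeq on GRCm38.p6, at chr9:44980382-44980681 on the minus strand for Cd3g, chr9:44981536-44981835 on the plus strand for Cd3d and chr9:45009562-45009861 on the minus strand for Cd3e. Capitals mark matches on either strand to the core letters CTTTGAT for factors of the TCF and LEF family, AGATAA for those of the GATA family, GGAAGT for the ETS family, TGNGGT for the RUNX family and CAGGTG for the E-box that E proteins bind.
Cd3g: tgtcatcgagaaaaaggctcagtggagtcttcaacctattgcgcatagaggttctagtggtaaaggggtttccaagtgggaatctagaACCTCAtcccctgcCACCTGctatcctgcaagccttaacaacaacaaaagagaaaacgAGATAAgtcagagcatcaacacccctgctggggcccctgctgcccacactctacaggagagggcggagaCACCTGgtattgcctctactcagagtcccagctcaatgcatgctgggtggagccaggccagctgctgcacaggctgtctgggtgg
Cd3d: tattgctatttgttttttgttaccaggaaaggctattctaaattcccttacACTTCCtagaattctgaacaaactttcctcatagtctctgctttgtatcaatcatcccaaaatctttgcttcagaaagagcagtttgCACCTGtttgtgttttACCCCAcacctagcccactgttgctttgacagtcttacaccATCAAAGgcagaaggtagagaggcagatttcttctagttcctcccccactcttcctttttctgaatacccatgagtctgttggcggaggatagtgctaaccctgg
Cd3e: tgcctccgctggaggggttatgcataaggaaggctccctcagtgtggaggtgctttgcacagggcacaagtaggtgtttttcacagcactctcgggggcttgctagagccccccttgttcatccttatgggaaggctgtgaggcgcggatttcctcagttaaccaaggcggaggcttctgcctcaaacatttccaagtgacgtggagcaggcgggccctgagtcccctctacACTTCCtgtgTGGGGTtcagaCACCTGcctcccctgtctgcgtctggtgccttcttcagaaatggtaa
The Cd3d window held a TCF and LEF match at position -55 from the start site, which 3.7% of 32851 mouse promoter windows of this length also hold. The Cd3g window held a GATA match, present in 11.2% of windows. All 3 windows held the E-box letters (20.2% of windows) and a RUNX match (45.8%), and those of Cd3d and Cd3e held the ETS letters (23.8%). No 2 of the motif matches in these windows overlapped. A match of letters is a description of the window and says nothing of binding.

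Cd3g, the gamma chain of CD3, had log2 levels of 5.34, 9.65, 5.34, 5.26, 9.24, 5.67, 5.24, 5.36, 5.63 and 6.13 in Pax5+/- leukemias 1 to 10. In Pax5+/- preleukemic samples 11, 12, 13, 21, 22, 23 and 24 it had 5.32, 6.11, 5.41, 5.34, 5.29, 5.23 and 5.4. Leukemias 2 and 5 were thus well above all preleukemic samples, at the 89.4 and 85.7 percentiles of all probe sets on their arrays, while the other 8 leukemias lay at or below the 49.9 percentile and overlapped the preleukemic range. The fitted difference was 0.84 on the log2 scale (SE 0.71, limma adjusted p = 0.297, n = 10 and n = 7), and it was 0.05 with leukemias 2 and 5 left out, samples chosen after their values were seen. In WT leukemias 14, 15 and 17 it had 6.17, 10.39 and 5.48, and in WT preleukemic samples 18, 19 and 20 it had 5.55, 5.67 and 7.97. The groups overlapped and the difference of 0.95 (SE 1.17, adjusted p = 0.533, n = 3 each) did not pass. It was -0.57 without WT leukemia 15, 1.88 without WT leukemia 17 and 1.74 without WT preleukemic sample 20, so its direction rested on leukemia 15.

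Cd3e, the epsilon chain that pairs with gamma and delta, was highest in the same Pax5+/- leukemias. It had 6.46, 8.33, 6.3, 6.28, 7.78, 6.48, 6.31, 6.36, 6.48 and 6.5 in Pax5+/- leukemias 1 to 10, and 6.37 to 6.65 in Pax5+/- preleukemic samples with a median of 6.56. Leukemias 2 and 5 exceeded every preleukemic sample and the other 8 were within or below the preleukemic range. The difference was 0.18 (SE 0.25, limma adjusted p = 0.528) and turned to -0.15 with leukemias 2 and 5 left out (adjusted p = 0.218). In WT leukemias it had 6.52, 6.92 and 6.37, against 6.69, 6.87 and 7.61 in WT preleukemic samples, and the difference of -0.45 (SE 0.41) had an adjusted p of 0.387. In WT leukemia 15, where Cd3g was highest of all 23 samples, Cd3e was thus within the range of the WT preleukemic samples. Over the 10 Pax5+/- leukemias Cd3e was also the tested gene most like Cd3g, with a Pearson r of 0.987 and a Spearman rho of 0.933, and r was 0.769 over the other 8 leukemias without 2 and 5. Next to Cd3e, Cd209d (r = 0.973) and Slc46a3 (r = 0.959) were most like Cd3g, and without leukemias 2 and 5 their r was 0.233 and -0.042.

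Cd3d, the delta chain, was low in Pax5+/- leukemias, at 4.83 to 5.83 with a median of 4.98, and in Pax5+/- preleukemic samples at 5.03 to 5.19 with a median of 5.1. Leukemia 2 held the highest value and the 9 others were at or below 5.23. The groups overlapped and the difference was -0.03 (SE 0.19, limma adjusted p = 0.884). The WT leukemias had 4.82, 6.7 and 5.04, against 5.09, 5.37 and 5.66 in WT preleukemic samples, with only leukemia 15 above the median of its array. The difference of 0.15 (SE 0.31, adjusted p = 0.724) was -0.44 without leukemia 15.

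Cd247, which encodes the zeta chain, was just above the array median in all 23 samples. It spanned 6.24 to 7.0 in Pax5+/- leukemias with a median of 6.66, against 6.46 to 6.64 in Pax5+/- preleukemic samples with a median of 6.53. The leukemias lay on both sides of the preleukemic range, with 5, 7 and 4 highest and 6 lowest (difference 0.13, SE 0.10, limma adjusted p = 0.282). The WT leukemias had 6.41, 7.1 and 6.44, against 6.6, 6.92 and 6.78 in WT preleukemic samples, and the difference of -0.12 (SE 0.17) had an adjusted p of 0.612. Its order over the leukemias was not that of Cd3g, since leukemia 7, second for Cd247, had the lowest Cd3g.

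Cd4 encodes the co-receptor of helper T cells that binds MHC class II. It had 6.85, 9.21, 6.88, 6.23, 6.82, 6.91, 6.61, 7.74, 6.76 and 7.7 in Pax5+/- leukemias 1 to 10, and 6.08, 6.06, 5.93, 5.98, 6.04, 6.1 and 6.08 in Pax5+/- preleukemic samples 11, 12, 13, 21, 22, 23 and 24. All 10 leukemias exceeded all 7 preleukemic samples, and leukemias 2, 8 and 10 were the highest. Cd4 rose 2.19-fold (1.13 on the log2 scale, SE 0.31, limma adjusted p = 0.00362, n = 10 and n = 7), and by 0.91 without leukemia 2 (adjusted p = 0.00165). Of all 15542 genes tested, 11.7% also had every Pax5+/- leukemia above every Pax5+/- preleukemic sample. In WT leukemias Cd4 had 7.04, 6.75 and 8.45, against 6.0, 5.97 and 6.82 in WT preleukemic samples. Leukemia 15 lay below preleukemic sample 20, so the groups overlapped. The difference of 1.15 (SE 0.52, adjusted p = 0.0845) did not pass. It was 0.63 without leukemia 17 (adjusted p = 0.372) and 0.74 with the Xist level as a covariate (adjusted p = 0.362). Xist was split by stage in WT mice, so that covariate cannot tell sex from stage there. The WT difference in Cd4 passed without Pax5+/- leukemia 2, whose removal narrows the shared spread (adjusted p = 0.0173).

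Over the 10 Pax5+/- leukemias the genes most like Cd4 were Cd40, a receptor of B cells and antigen-presenting cells (Pearson r = 0.974), Ikzf3, which encodes the lymphoid factor Aiolos (r = 0.955), and Tspan33 (r = 0.953). Without leukemias 2 and 8 these were 0.889, 0.843 and 0.755. These r values are descriptions, since the genes were picked as the highest among all genes tested. Monocyte and macrophage markers also differed by stage: 10 of 11 rose in Pax5+/- leukemias, where 28% of all genes rose. The mean of these markers was 8.03 to 10.31 in Pax5+/- leukemias and 6.72 to 7.14 in Pax5+/- preleukemic samples. Among the leukemias it did not follow Cd4 throughout. Leukemia 2 was the highest, but leukemias 8 and 10, next in Cd4, had 9.01 and 8.63. Leukemias 1, 3 and 6, with less Cd4, had 9.2, 9.04 and 9.31. In WT mice that mean was 9.15 to 9.42 in leukemias and 6.69 to 8.33 in preleukemic samples. Plasmacytoid dendritic cell markers, of which 4 of 7 rose and 1 fell where 28% of all genes rose and 36.5% fell, had means of 7.62 to 10.0 in Pax5+/- leukemias and 7.83 to 8.3 in Pax5+/- preleukemic samples. In WT mice they were 7.76 to 9.12 in leukemias and 7.99 to 10.01 in preleukemic samples. In the leukemias with the most Cd4, numbers 2, 8 and 10, this mean was 9.12, 9.21 and 7.62, so it was among the highest in 2 and 8 and the lowest of all in 10. The part of these cells in the Cd4 level was not tested.

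Cd8a, a chain of the co-receptor of cytotoxic T cells, stood out in a single leukemia. It was 7.14 in Pax5+/- leukemia 5, and 5.53 to 6.0 in the other 9 Pax5+/- leukemias. The Pax5+/- preleukemic samples spanned 5.61 to 5.97 with a median of 5.81, so leukemia 5 was far above them and leukemia 8, at 6.0, just above. The difference was 0.09 (SE 0.16, limma adjusted p = 0.625), and -0.05 without leukemia 5. Cd8b1, the gene of the partner chain and the neighbour of Cd8a on chromosome 6, was 6.95 in leukemia 5 and at most 5.76 in the other Pax5+/- leukemias. It was among the 3 genes most like Cd8a over the 10 leukemias (r = 0.942, and 0.639 without leukemias 5 and 8), after Dapl1 (r = 0.959). WT leukemias had 5.65, 5.72 and 5.7, against 5.97, 5.93 and 6.16 in WT preleukemic samples. Every WT leukemia was below every WT preleukemic sample, as for 23.3% of all genes tested, and the difference of -0.33 (SE 0.26) had an adjusted p of 0.316. It passed with the WT groups fitted alone (adjusted p = 0.0417) and without Pax5+/- leukemia 5 (adjusted p = 0.0221), which lowers the shared SE to 0.11.

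The transcription factors of the list were low in nearly all samples. Gata3, needed for early T cells and for helper T cells, spanned 5.3 to 5.97 in Pax5+/- leukemias with a median of 5.36, against 5.36 to 5.61 in Pax5+/- preleukemic samples with a median of 5.47. Leukemia 5 was highest, leukemia 3 next at 5.69, and all values were below the median of their array (difference -0.03, SE 0.10, limma adjusted p = 0.832). In WT leukemias Gata3 had 5.52, 6.34 and 5.62, against 5.42, 5.67 and 5.91 in WT preleukemic samples (difference 0.16, SE 0.17, adjusted p = 0.48), with leukemia 15 the only sample of all 23 above its array median. Bcl11b, the commitment factor, spanned 5.58 to 6.06 in Pax5+/- leukemias with a median of 5.74, and 5.81 to 6.02 in Pax5+/- preleukemic samples with a median of 5.84. The groups overlapped, leukemias 5 and 2 were highest, and the difference was -0.11 (SE 0.07, adjusted p = 0.18). It was -0.17 without leukemias 2 and 5, with an adjusted p of 0.0123. In WT leukemias Bcl11b had 5.67, 5.83 and 5.73, against 5.81, 6.22 and 5.89 in WT preleukemic samples (difference -0.23, SE 0.12, adjusted p = 0.118).

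Of all genes tested, 28% were called higher and 36.5% lower in Pax5+/- leukemias, and of the 8 members 1 was called higher and 0 lower. In WT leukemias the shares over all genes were 17.9% higher and 19.3% lower. The members' median difference was 0.11 on the log2 scale in Pax5+/- mice, beside -0.05 over all genes tested, and 0.01 in WT mice, beside -0.06. All 8 met the filter on low values, which asks for 3 arrays above their 30th percentile, and Cd3d and Gata3 met it while low in nearly all samples. By limma's interaction test of the stage difference between the genotypes 0 of 8 members passed, with adjusted p from 0.856 to 0.998, 0 at an unadjusted p under 0.05, and 0.0965% of all genes called. For Cd4 the interaction was -0.02 with an SE of 0.61, so this precision leaves room for a difference of either sign. The plot of fitted differences places the genotypes side by side.

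**Figure D2:**
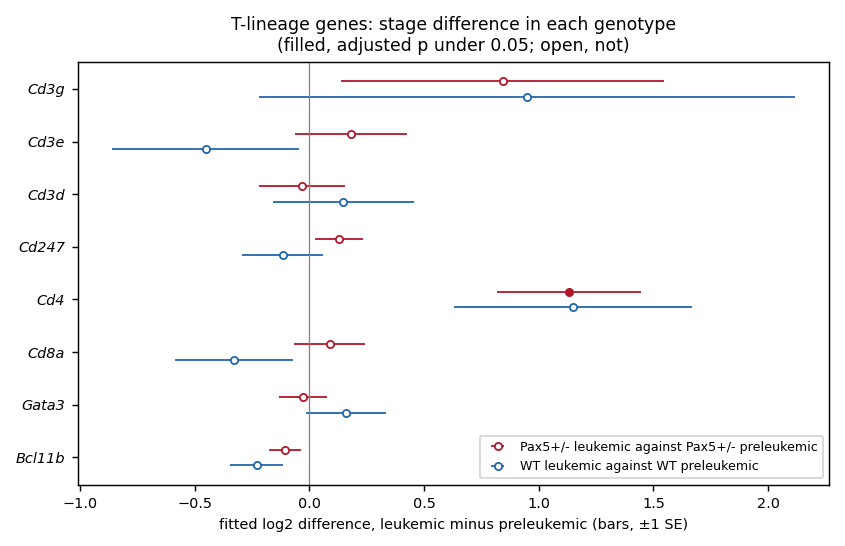
Fitted log2 difference between leukemic and preleukemic samples (horizontal axis) for the 8 T-lineage genes in Pax5+/- mice (red, n = 10 and n = 7) and WT mice (blue, n = 3 each), with bars of 1 SE. Filled points passed an adjusted p of 0.05; only Cd4 in Pax5+/- mice, at 1.13, did.

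Between the genotypes 0 of 8 members passed limma's test at either stage. Before leukemia, where 0.624% of all genes passed, the 8 differences of Pax5+/- from WT cells were all negative, from -0.95 (Cd3g) to -0.10 (Bcl11b), with 0 at an unadjusted p under 0.05 and adjusted p from 0.731 to 0.97. Without WT preleukemic sample 20, Cd4 differed by 0.05 in place of -0.23 and Cd3g by -0.17. Cd3e had all 7 Pax5+/- preleukemic samples (6.37 to 6.65) below the WT preleukemic samples (6.69, 6.87 and 7.61), as did 3.1% of all genes tested (adjusted p = 0.747). NK cell marker means were 5.63 to 7.04 in Pax5+/- preleukemic samples, with 2 to 8 of the 11 markers above the array median, against 6.57 to 8.49 in WT preleukemic samples, with 6 to 11 above it. Their median difference was -1.34, with 0 of 11 passing limma's test and 6 at an unadjusted p under 0.05, and their part in the Cd3e and Cd3g levels was not tested. In leukemia, where 0.341% of genes passed, differences ran from -1.06 (Cd3g) to 0.19 (Cd8a). Gata3 had the 1 unadjusted p under 0.05 (p = 0.0171, adjusted p = 0.604), with a difference of -0.36 that was -0.11 without WT leukemia 15.

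The 4 group means of each gene can be put in order. For Cd4 the order was 7.41 ± 0.91 (SD, n = 3) in WT leukemias, 7.17 ± 0.85 (SD, n = 10) in Pax5+/- leukemias, 6.26 ± 0.48 (SD, n = 3) in WT preleukemic and 6.04 ± 0.06 (SD, n = 7) in Pax5+/- preleukemic samples, where neither the leukemias nor the preleukemic groups differed from each other beyond their spread, and the Pax5+/- leukemias were not tested against WT preleukemic samples. For Cd3g it was 7.35 ± 2.66 in WT leukemias, 6.4 ± 1.36 in WT preleukemic samples, 6.29 ± 1.69 in Pax5+/- leukemias and 5.44 ± 0.3 in Pax5+/- preleukemic samples, each gap being smaller than the SD of the higher group. For each of the other 6 genes the group means were closer together, with Cd3e the widest at 7.06 ± 0.49 in WT preleukemic and 6.55 ± 0.1 in Pax5+/- preleukemic samples.

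The samples with high Cd3g differed in what else they held. In WT leukemia 15 and WT preleukemic sample 20 all 11 NK cell markers were above the array median, with Ncr1, an activating receptor that defines NK cells, at 10.38 and 9.31 and the granzyme gene Gzma at 10.75 and 8.52. In Pax5+/- leukemias 2 and 5, 8 and 5 of the 11 markers were above the median, against 3 or 4 in other Pax5+/- leukemias. Leukemias 2 and 5 had NK means of 7.25 and 6.42. Ncr1 was 4.86 and 4.91 there and Klrb1c 4.88 and 5.19, all below the array median. Ncr1 was below it in every other Pax5+/- leukemia too. Klrb1c was below it in all of them but leukemia 7, which had Klrb1c at 9.07 and Cd3g at 5.24. Leukemia 2 was nevertheless the highest Pax5+/- leukemia for 6 of the 11 markers, with Eomes at 7.33, Tbx21 at 7.76, Gzmb at 6.86, Klrk1 at 6.53, Nkg7 at 10.82 and Il2rb at 8.72. Leukemia 5 was the highest for Gzma, at 7.11 where the other Pax5+/- leukemias had at most 5.33. The range of the NK mean was 5.8 to 7.25 in Pax5+/- leukemias, 5.63 to 7.04 in Pax5+/- preleukemic samples, 5.82 to 9.26 over the WT leukemias and 6.57 to 8.49 over the WT preleukemic samples. Preleukemic sample 12, the highest in Cd3g of its group at 6.11, also had the highest NK mean of its group, at 7.04. WT preleukemic sample 19 went the other way. Its NK mean was 7.4, above those of samples 2 and 12, with 10 of the 11 markers above the array median. Its Cd3g was 5.67, below the array median. The plot of Cd3g against NK markers shows samples 15 and 20 high on both axes, and sample 2 with the highest NK mean of the Pax5+/- samples. The part of NK cells in the Cd3g level of samples 2, 5, 12, 15 and 20 was not tested.

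**Figure D3:**
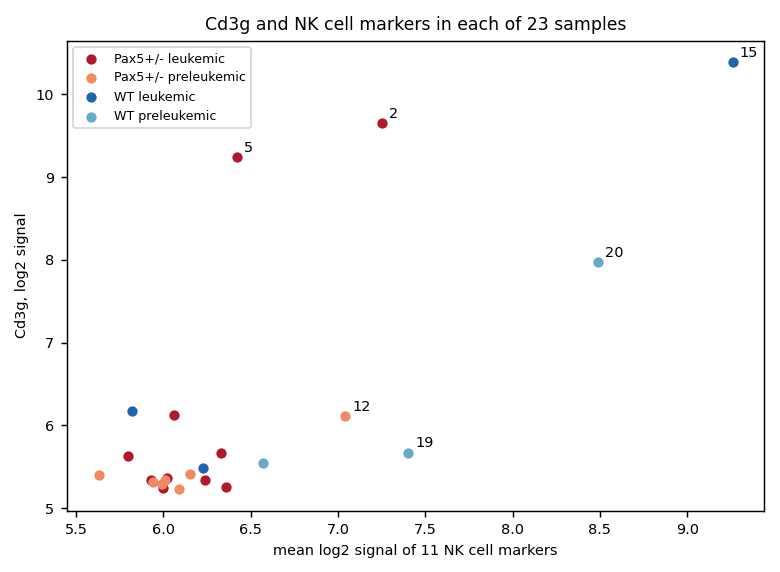
Cd3g log2 signal (vertical axis) against the mean log2 signal of 11 NK cell markers (horizontal axis) in 23 samples, coloured by group, with numbers on samples at or above 7 on either axis. Samples 15 and 20 are high on both axes, and samples 2 and 5 hold high Cd3g (9.65 and 9.24) at NK means of 7.25 and 6.42. Sample 19 holds low Cd3g (5.67) at an NK mean of 7.4.

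Genes of the T cell receptor chains themselves were measured in part. None of the constant regions listed had a probe set of its own, and of 9 variable segments with one, 4 were tested. The gamma chain segment Trgv1, chosen after its values were seen, had 5.11, 5.42, 6.66, 9.19, 10.47, 4.98, 4.95, 4.91, 5.22 and 6.68 in Pax5+/- leukemias 1 to 10, and 5.05 to 5.61 in Pax5+/- preleukemic samples. Leukemias 5 and 4 were the highest, and leukemia 2, with the most Cd3g, was within the preleukemic range. Trgv1 was 5.23, 10.1 and 6.75 in WT leukemias 14, 15 and 17, and 5.09, 5.2 and 7.25 in WT preleukemic samples. Among the other 8 segments the highest level in any sample was 7.4, for Trbv1. Probes can bind near-identical segments, so the exact segment is uncertain.

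Of 20 listed genes of T cell receptor signalling and the T cell surface, 18 were tested. Of these, 9 rose and 1 fell in Pax5+/- leukemias (median difference 0.67, beside -0.05 over all genes tested), and 5 rose and 1 fell in WT leukemias (median 0.14, beside -0.06). Over all genes tested 64.6% passed in Pax5+/- mice, 28% of all genes higher and 36.5% lower. In WT mice 37.2% of all genes passed, 17.9% higher and 19.3% lower. With rises and falls pooled, 10 of the 18 listed genes passed in Pax5+/- mice and 6 of 18 in WT mice. These pooled shares were no higher than over all genes. By direction, in both genotypes a larger share of the list than of all genes rose, and a smaller share fell. This lean of the list was not tested. The kinase gene Fyn rose 2.65-fold in Pax5+/- leukemias (10.51 ± 0.16, n = 10, against 9.11 ± 0.14, n = 7, as log2 level and SD, limma adjusted p = 2.8e-09). Grap2, an adaptor that joins LAT and SLP-76, rose 4.04-fold and Lat, the membrane scaffold downstream of the receptor, 3.22-fold. Cd96, a receptor of T and NK cells, rose 12.2-fold, with a group mean of 9.52 ± 1.09 in Pax5+/- leukemias against 5.91 ± 0.38 in Pax5+/- preleukemic samples, and Thy1, a surface protein of thymocytes and stem cells, rose 3.5-fold. Cd2, an adhesion receptor of T cells that mouse B cells also carry, fell 14.3-fold. In WT leukemias Fyn rose 2.08-fold, Grap2 3.17-fold and Lat 3.83-fold, and Cd2 fell 13.1-fold (limma adjusted p = 0.000188 for Cd2). Cd96 rose 4.27-fold there (adjusted p = 0.0164), a call lost without WT leukemia 15, without WT preleukemic sample 18 or 19, or with the Xist covariate, when 3 genes of the list rose in place of 5. Xist was split by stage in WT mice, so that covariate cannot tell sex from stage there. Markers of other marrow cells moved with these rises. All 5 tested megakaryocyte and platelet markers rose in both genotypes (median difference 2.92 in Pax5+/- mice and 2.93 in WT mice), with means of 8.2 to 11.21 in Pax5+/- leukemias against 6.61 to 6.82 in Pax5+/- preleukemic samples, and of 9.78 to 10.47 in WT leukemias against 6.7 to 6.81 in WT preleukemic samples. Of 10 neutrophil markers 8 rose in Pax5+/- leukemias (median 1.95), with means of 6.28 to 11.15 against 6.29 to 7.0 in Pax5+/- preleukemic samples. In WT mice limma called 0 of 10, with 1 at an unadjusted p under 0.05 (median 2.05), and the means were 9.47 to 10.6 in leukemias and 6.58 to 11.08 in preleukemic samples. The part of these cells, and of the monocytes and macrophages above, in the rises was not tested.

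Other genes of this list were high in some leukemias, and those named next were chosen after their values were seen. Themis, a regulator of thymocyte selection, was 9.15 in Pax5+/- leukemia 4, 7.95 in 3 and 6.86 in 5, against at most 5.14 in Pax5+/- preleukemic samples. Its rise of 2.16-fold (limma adjusted p = 0.0414) no longer passed without leukemia 3 or 5 (adjusted p = 0.0744 and 0.0673), nor without any single Pax5+/- preleukemic sample. The co-stimulatory receptor gene Cd28 was 5.48 to 9.38 in Pax5+/- leukemias with leukemias 2, 1 and 3 highest, and 5.17 to 5.46 in Pax5+/- preleukemic samples, a rise of 3.41-fold (adjusted p = 0.00506). Trat1, a T cell adaptor that did not meet the filter, was 8.54 in WT leukemia 17 and at most 5.46 in all other samples. The kinase gene Zap70, which acts beside LCK, was 6.83 in leukemia 1 and at most 5.84 in the other Pax5+/- leukemias, and did not pass. In the WT leukemias its highest level was 6.79.

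Notch and early T cell regulators moved in both directions. Of 18 listed, 17 were tested, and 6 rose and 8 fell in Pax5+/- leukemias (median -0.14) and 3 rose and 6 fell in WT leukemias (median -0.4). Over all genes 28% rose and 36.5% fell in Pax5+/- leukemias, and 17.9% rose and 19.3% fell in WT leukemias. The same markers of other marrow cells moved with these genes, and their part was not tested. Runx3, a factor of cytotoxic T cells and other blood lineages, rose 4.25-fold, to 9.99 ± 0.35 in Pax5+/- leukemias against 7.91 ± 0.28 in Pax5+/- preleukemic samples (limma adjusted p = 1.79e-09). Tox rose 3.87-fold, the Notch receptor genes Notch1 and Notch3 2.06-fold and 1.43-fold, and the Notch feedback gene Nrarp 1.52-fold. Lef1, a close relative of Tcf7 that early B cells also express, fell 8.84-fold, and Dtx1, a Notch target and regulator, 2.85-fold. Id3, an inhibitor of E proteins, fell 3.36-fold, Ets1 2.28-fold and the E protein gene Tcf12 1.64-fold. Among the 8 falls was Ptcra, named because its call was not stable. It was below the array median in all samples, at means of 5.56 in Pax5+/- leukemias and 5.69 in Pax5+/- preleukemic samples. It did not pass limma's test with quantile normalization (adjusted p = 0.294) or without preleukemic sample 24 (adjusted p = 0.0644). In WT leukemias Runx3, Tox and Notch3 rose 2.23-fold, 3.66-fold and 1.53-fold, and Tcf12, Id3 and Dtx1 fell 1.95-fold, 3.71-fold and 2.17-fold. The WT rise of Tox was lost with the Xist covariate (adjusted p = 0.0816), which cannot tell sex from stage in WT mice. Without Pax5+/- leukemia 2, 5 genes of the list rose in WT mice in place of 3. Notch1 had a mean of 10.92 ± 0.36 in WT leukemias against 10.09 ± 0.13 in WT preleukemic samples and did not pass. By limma 0 genes of these lists passed in the interaction or between the genotypes at either stage, and 2, 1 and 1 of the 35 had an unadjusted p under 0.05 between the genotypes before leukemia, between them in leukemia and in the interaction. Before leukemia, 4 of the 18 signalling and surface genes had every Pax5+/- sample below every WT sample. So did 1 of the 17 regulators, and 3.1% of all genes tested. With those 2 groups fitted alone, 1 of the 18 passed limma's test, as lower in Pax5+/- cells. The plot of the other T cell genes gives the stage differences of all 35.

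**Figure D4:**
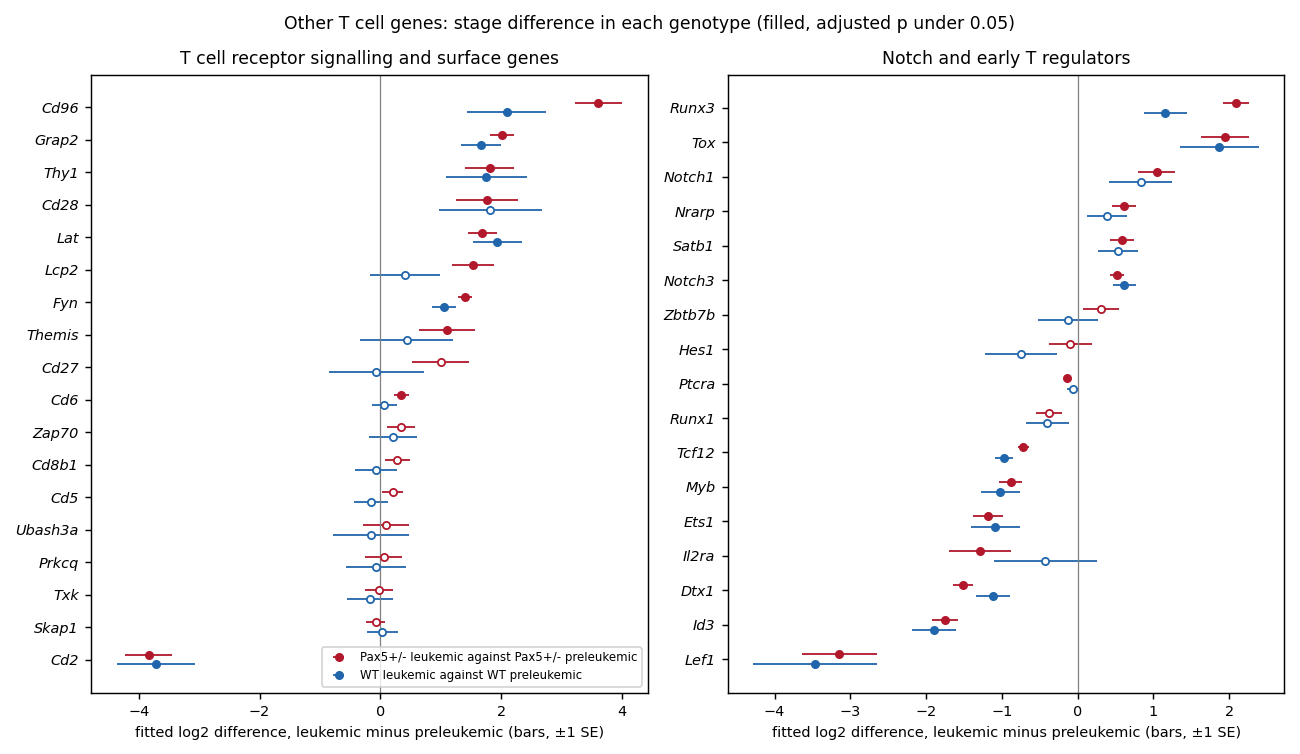
Fitted log2 difference between leukemic and preleukemic samples (horizontal axes) with bars of 1 SE for 18 T cell receptor signalling and surface genes (left) and 17 Notch and early T regulators (right), in Pax5+/- mice (red) and WT mice (blue); filled points passed an adjusted p of 0.05. Cd96 rose and Cd2 fell in both genotypes, and Runx3 rose and Lef1 fell in both.

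Between them, the 8 genes were highest in few leukemias. Among the 10 Pax5+/- leukemias, leukemia 2 was highest for Cd3d, Cd3e, Cd3g and Cd4, and leukemia 5 for Cd247, Cd8a, Bcl11b and Gata3, and leukemia 5 was second for Cd3d, Cd3e and Cd3g. The mean over the 8 genes was 7.14 in leukemia 2 and 6.91 in leukemia 5, against 5.83 to 6.04 in the other 8 leukemias and 5.81 to 5.91 in Pax5+/- preleukemic samples. In WT mice it was 5.98, 6.97 and 6.1 in leukemias 14, 15 and 17, and 5.89, 6.08 and 6.6 in preleukemic samples 18, 19 and 20. Gene by gene, leukemia 2 held high Cd3g, Cd3e and Cd4 with Cd8a at 5.93, and leukemia 5 held high Cd3g, Cd3e, Cd8a and Cd8b1 with Cd4 at 6.82. Cd3d was below the array median in both, at 5.83 and 5.23. The B lineage marker mean was 9.59 in leukemia 2, the lowest of the Pax5+/- leukemias, and 10.75 in leukemia 5, against 11.7 to 11.95 in Pax5+/- preleukemic samples.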

How the data were processed

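Mouse bone marrow RNA was measured on 1 single-colour Affymetrix array per sample, after labelling with the WT Terminal Labeling Kit, per the labels' protocols. The values analysed are the log2 signals that the authors deposited for 28944 probe sets. Transcriptome Analysis Console is named in the submitters' processing notes; background correction, normalization and its settings are not given in the sources used here. Arrays have no read depth, and their number limits the precision.

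Gene names came from the platform annotation: 21789 probe sets had 1 symbol, 1621 several and 5534 none. Each gene was represented by its single-symbol probe set of highest mean. Genes above their own array's 30th percentile on at least 3 of 23 arrays were tested. All 4 groups entered 1 limma fit (limma 3.58.1, R 4.3.3) with an intensity trend, and p-values were adjusted by Benjamini-Hochberg over the 15542 genes tested. Tables and plots used Python 3.11.15 with pandas 2.3.3. The code was tested on simulated data. No 2 arrays were identical. Nothing in the labels ties a p-value to more than the spread between these samples, whose animals bear different names.

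The members and lists were chosen with earlier results of these data known. All 10 members were named in every comparison. From each other list up to 5 passing genes of smallest p in each direction were named in Pax5+/- mice and up to 3 in the others. The 3 most correlated genes over the Pax5+/- leukemias were taken for each member. Promoter sequences are RefSeq's on GRCm38.p6. Alternatives changed the filter, trend, priors, array weights, normalization, probe set rule, samples and an Xist covariate.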

Additional observations from a re-analysis of the deposited data

Results flagged for a closer look

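For the members and the tested segments of the T cell receptor, 24 sets of values in the Pax5+/- groups were checked with Dixon's test. It looks for a sample far from the others, and 6 sets were picked out. Its rate of about 1 in 20 holds for independent sets of normal values. These sets share samples, and the members were chosen with earlier results known, so the count cannot be set against that rate. Cd4 was 9.21 in Pax5+/- leukemia 2, with the next leukemia at 7.74. Cd3d was 5.83 in the same leukemia, with the next at 5.23. Cd8a was 7.14 in Pax5+/- leukemia 5, with the next at 6.0. The T cell receptor segment Trav13-5 was 6.42 in Pax5+/- leukemia 8, with the next at 6.24. That level was within the 6.19 to 6.51 of the Pax5+/- preleukemic samples. Among Pax5+/- preleukemic samples, sample 12 stood apart in Cd3g at 6.11, with the next at 5.41, and in Trgv1 at 5.61, with the next at 5.26. Cd3g and Cd3e in the leukemias were not picked out, since 2 samples were high together.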

How the results depend on the processing

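No paired analysis was possible because each sample number occurs in 1 group only. The rise of Cd4 in Pax5+/- leukemias passed under every alternative run, at 0.91 to 1.24 on the log2 scale. The members passing in Pax5+/- mice numbered 1 under all alternatives but 1: they were 2 with leukemias 2 and 5 left out, an alternative chosen after seeing the data (Cd4 higher, Bcl11b lower). In WT mice 0 passed, but 1 with array weights (Cd4), 1 with the 2 groups fitted alone (Cd8a, lower), 1 without leukemias 2, 6 and 7 (Cd4) and 4 without leukemias 2 and 5 (Cd4 higher, Cd3e, Cd8a and Bcl11b lower). With single samples left out the WT count ran from 0 to 1, with Cd4 passing without Pax5+/- leukemia 2 and Cd8a without 5. Leaving out Pax5+/- leukemias left the WT levels as they were and narrowed the shared spread. The Notch and early T genes that rose in WT mice, 3 in all, were 5 with array weights or with the 2 groups fitted alone.

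Differences that turned in sign did not pass under the alternative. In Pax5+/- mice these were Cd3d at 0.069 and Gata3 at 0.06 with quantile normalization, Gata3 at 0.006 without leukemias 2, 6 and 7, and Cd3e at -0.15 and Cd8a at -0.076 without 2 and 5. With samples 15, 17 and 20 left out, Cd3d was -0.41 and Gata3 -0.025 in the WT comparison, Cd4 0.054 between preleukemic genotypes, Cd3d 0.26, Cd3g 0.12 and Cd4 0.13 between leukemic genotypes, and Cd3d 0.38, Cd3g 0.28 and Cd4 0.077 in the interaction. Array weights gave Cd247 at 0.023 in WT mice and -0.075 between leukemias. Between leukemias Cd3e was -0.009 without 2, 6 and 7, and Cd3e -0.21, Cd247 -0.028 and Bcl11b -0.046 without 2 and 5. With Xist as a covariate the interaction was 0.52 for Cd3g and 0.36 for Cd4. The cause was not tested.

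With single samples left out, the range was -0.052 to 0.13 for Cd8a in Pax5+/- mice. In WT mice it was -0.44 to 0.50 for Cd3d, -0.57 to 1.88 for Cd3g, -0.34 to 0.003 for Cd247 and -0.10 to 0.31 for Gata3. Between preleukemic genotypes it was -0.37 to 0.054 for Cd4 and -0.18 to 0.023 for Bcl11b. Between leukemias it was -0.79 to 0.15 for Cd3d, -0.053 to 0.28 for Cd3e, -1.99 to 0.46 for Cd3g, -0.10 to 0.24 for Cd247, -0.57 to 0.28 for Cd4 and -0.014 to 0.066 for Bcl11b. In the interaction it was -0.53 to 0.41 for Cd3d, -1.04 to 1.42 for Cd3g, -0.35 to 0.50 for Cd4, -0.0 to 0.20 for Bcl11b and -0.34 to 0.07 for Gata3.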
